A study of Mus musculus with 77 samples.

Results

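Mouse chromosome 5 was followed bin by bin through the replication profiles of single blastomeres from cloned embryos. Its members were all 80-kb bins that the deposited profiles place on chromosome 5, 1906 of 32973 bins on chromosomes 1 to 19 and X, chosen by position and not by any measured value. Of these, 1000 bins began below 80 Mb and are called proximal here, 656 began at 100 Mb or beyond and are called distal, and 250 lay between. In every profile a bin is replicated (1), not replicated (-1) or without a call (0). On chromosome 5, 50 bins were called in no cell and 31 in every cell.

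Every cell came from a cloned BDF1 embryo grown in vitro in CZB medium. Cloning was by somatic cell nuclear transfer (SCNT): an egg has its own chromosomes taken out and receives a body cell's nucleus instead. The donor cell type is not given in the labels, and the groups used here include no embryo made by fertilization. There were 28 cells from 14 embryos of 4 cells, and 49 cells from 12 embryos of 8 cells. Comparisons used cells in the middle of S phase, with 30 to 70% of called autosomal bins replicated: 18 cells from 9 4-cell embryos and 28 cells from 10 8-cell embryos. Cells of an embryo were averaged first, and n counts embryos. The 4-cell embryos compared fall into a set titled mEmb04C (5 embryos, the earlier batch in the authors' annotation) and a set titled DEP_01 (4 embryos, the later batch), so that set and batch cannot be told apart at this stage. All 8-cell embryos compared belong to DEP_01 and the later batch. The mean autosomal replicated share was 54.5% ± 8.99 (SD, n = 9) in the 4-cell embryos and 49.7% ± 8.09 (SD, n = 10) in the 8-cell embryos. It was 48.5% ± 6.502 (SD, n = 5) in the mEmb04C embryos and 62% ± 4.95 (SD, n = 4) in the 4-cell DEP_01 embryos, so the position within S phase moved with the set.

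A chromosome is copied in blocks that start at different times of S phase. In most mammalian cells early blocks are gene-rich, open and centrally placed in the nucleus, and late blocks are gene-poor, compact and often held at the nuclear lamina. In a profile of a single cell, a copied block shows as a doubled copy number, and over many cells the share of cells in which a bin is already copied orders the bins from early to late. In the early mouse embryo this programme is known to be loose at first and to sharpen over the first divisions. Mouse chromosome 5 has its centromere at the low-numbered end. In the RefSeq gene order its proximal part runs from Cdk6 past the semaphorin genes Sema3a, Sema3d and Sema3e, the growth factor gene Hgf, and Shh to a receptor gene group with Pdgfra, Kit and Kdr. The distal part runs past the T-box genes Tbx3 and Tbx5, the Tmem132 genes and Auts2, and the elastin gene Eln, to Actb, Cdx2 and Brca2. The table that gives this order is of the build GRCm38.p6 while the profiles are of mm9, so no gene coordinate or sequence was taken from it.

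2 cells used in the comparisons stood apart, both from 4-cell embryo 6 of the DEP_01 set. In 1 of them 95.9% of the called proximal bins were replicated, and in the other 0%, although their autosomal replicated shares were 56.6% and 56.5%. The first of these cells held no call from 90.08 to 132.96 Mb and few beyond, and the second none from 89.04 Mb to the end of the chromosome. As a result, embryo 6 has no distal value and its proximal value of 47.9% is the mean of opposite states. The remaining pair of cells of that embryo were further in S phase and were 99.5% and 100% replicated distally. A complementary pattern was seen in 4-cell embryo 5, whose cells were outside the range used. One cell, 93.7% replicated over the autosomes, was not replicated in any of 1034 called bins below 87.28 Mb and was replicated in all 64 called bins beyond it. This cell held no call from 92.4 Mb to the end of the chromosome, so its distal part has no value. The other cell of that embryo, 93.6% replicated over the autosomes, was 83.8% replicated in 1038 called bins below 87.28 Mb and 0% in 498 called bins beyond. What these blocks are was not tested. Single-state stretches of 20 Mb or more were found on chromosome 5 in 13 of 16 4-cell DEP_01 cells, 2 of 12 mEmb04C cells and 12 of 49 8-cell cells. This was near the median over the autosomes, which was 10, 1 and 9 cells in these sets. Among cells of 30 to 70%, 5 DEP_01 cells of the 4-cell stage had such a stretch on chromosome 5, against a median of 3 over the autosomes. No cell of the other sets had one on chromosome 5. On any autosome, 9 of the 18 4-cell cells and 12 of the 28 8-cell cells of that range had one. Values without the cells that had a stretch on chromosome 5 stand beside the results they bear on most.

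**Figure D1:**
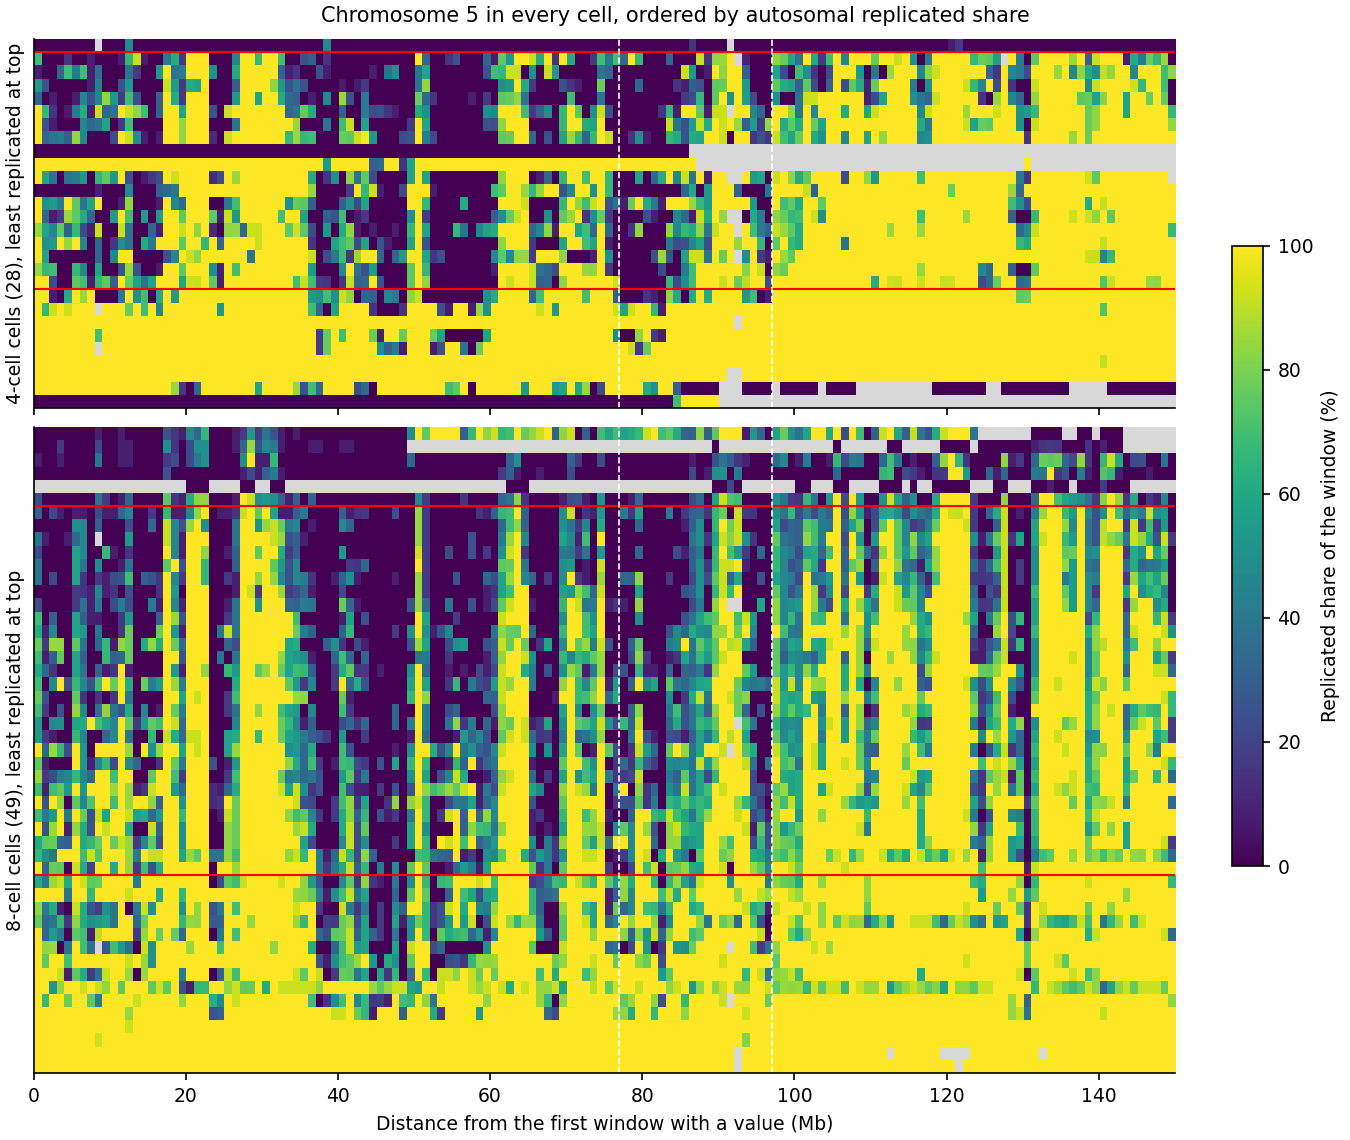
Replicated share of each 1-Mb window of chromosome 5 (colour, percent; grey, under 3 called bins) against distance in Mb from the first window with a value, for all 28 4-cell and 49 8-cell cells, 1 row per cell, least replicated at the top. Red lines bound the cells of 30 to 70% and dashed lines mark 80 and 100 Mb; within those bounds the right-hand part is mostly replicated and the left-hand part mostly not, and the block-wise rows of 4-cell embryos 5 and 6 are visible.

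In single mid-S cells, the distal part was ahead of the proximal part in all 28 of the 8-cell cells and in all 16 of the 4-cell cells that had a distal value. The lead of distal over proximal ranged from 31.8 to 48.4 percentage points at the 4-cell stage, with a median of 43.2. At the 8-cell stage it ranged from 14.8 to 45.4 points with a median of 30.98. Early in S phase, of 6 8-cell cells under 30% replicated, 5 had a higher distal than proximal share, with medians of 24.4% distally and 9.13% proximally over the 6. Calls were sparse in 2 of these cells, which had 365 and 913 called bins on chromosome 5. The single 4-cell cell under 30% had 1.28% of its proximal and 0.459% of its distal bins replicated, and so no such lead. In 8-cell cells the lead narrowed late in S phase, to a median of 16.0 points in the 15 8-cell cells above 70%, of which 12 were higher distally.

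Over embryos, the proximal part was replicated to 44.4% ± 8.08 (SD, n = 9) in the 4-cell embryos and 44.1% ± 10.5 (SD, n = 10) in the 8-cell embryos. The distal part reached 86.9% ± 9.01 (SD, n = 8) and 75.6% ± 8.04 (SD, n = 10). Because embryos sat at different points of S phase, each value was also set against the autosomal share of the same cells. The proximal part of the 4-cell embryos then lay between -13.0 and -5.56 points, below the autosomes in 9 of 9 embryos, with a mean of -10.1 ± 2.32 (SD, n = 9). In the 8-cell embryos it lay between -12.1 and 2.40 points, below in 9 of 10, with a mean of -5.61 ± 3.96 (SD, n = 10). The distal part of the 4-cell embryos lay between 22.7 and 36.5 points, above the autosomes in 8 of 8, with a mean of 32.6 ± 4.32 (SD, n = 8). In the 8-cell embryos it lay between 16.8 and 31.9 points, above in 10 of 10, with a mean of 25.9 ± 4.46 (SD, n = 10). Proximal and distal values did not overlap at either stage.

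The gap between the 2 parts was larger on average in the 4-cell embryos, with ranges that overlapped, and the difference was not tested. In the 4-cell embryos it was 46.8 points in embryo 1, 45.1 in embryo 3, 35.8 in embryo 7, 48.4 in embryo 9, 41.3 in embryo 10, 43.2 in embryo 11, 43.3 in embryo 13 and 39.4 in embryo 14. Its mean was 42.9 ± 4.06 (SD, n = 8). In the 8-cell embryos the gap ran from 21.4 to 42.6 with a median of 30.9 and a mean of 31.5 ± 6.77 (SD, n = 10). Both 4-cell sets had nearly the same gap, 43.1 ± 3.33 (SD, n = 5) in mEmb04C and 42.5 ± 5.93 (SD, n = 3) in DEP_01, although their autosomal shares differed. Without the cells that carried a long stretch on chromosome 5 the 4-cell gap was 42.7 points (n = 7). No p-value is given for these region means, since the regions were set with earlier results of these data known.

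**Figure D2:**
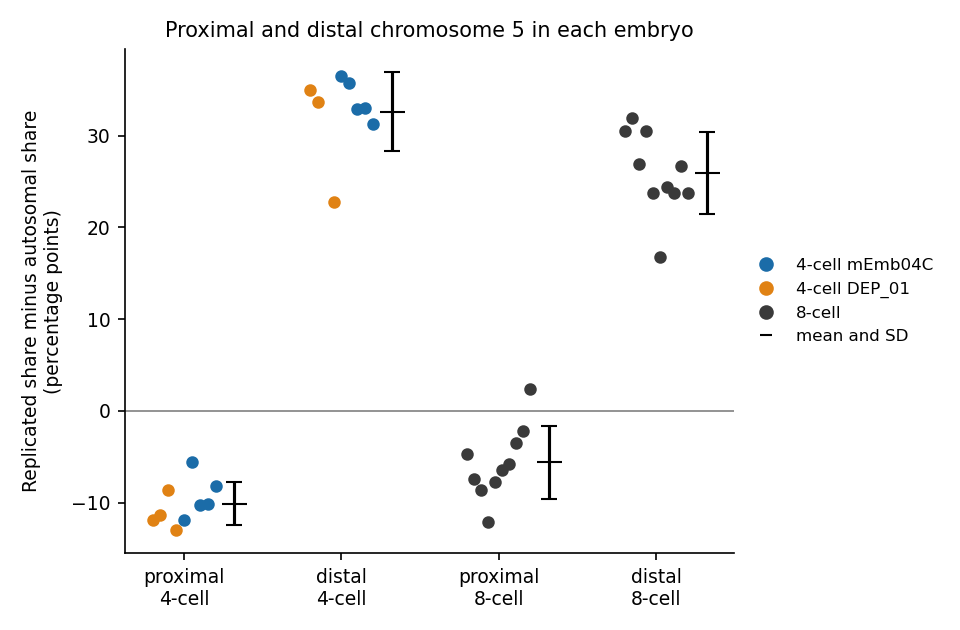
Replicated share of proximal and distal chromosome 5 minus the autosomal share of the same cells, in percentage points, for each embryo (points, coloured by set) with the mean and SD beside them. Proximal points lie between -13.0 and 2.40 and distal points between 16.8 and 36.5 over both stages.

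These opposite parts nearly cancelled in the chromosome as a whole. Chromosome 5 exceeded the autosomal share in 7 of 9 4-cell embryos, by 3.07 points ± 5.01 (SD, n = 9), which did not pass a two-sided exact sign-flip test adjusted over 20 chromosomes (p = 0.105, adjusted p = 0.192). That test called 4 of the 20 chromosomes at this stage (20%). Without 4-cell embryo 6 the excess was 4.49 points and passed (adjusted p = 0.0391, exact sign-flip test). In the later batch alone the mean was -0.30 points (n = 4), where so few embryos allow the exact test no p under the threshold. At the 8-cell stage chromosome 5 was above the autosomes in 10 of 10 embryos, by 5.33 points ± 2.58 (SD, n = 10, adjusted p = 0.00781, exact sign-flip test). Chromosomes 3, 6, 14 and 17 had the same adjusted p, the smallest this test gave there. The test called 9 of 20 chromosomes at that stage (45%), and chromosome 5 ranked 4 among the autosomes from the earliest.

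Cut into segments of 20 Mb, the chromosome did not divide simply at its middle. A segment from 20 to 40 Mb, inside the proximal part, was early, and the segments from 40 to 100 Mb had means below the autosomes. The limma fit on segment minus autosomal share, adjusted over all 137 segments of the genome, called 8 of 8 chromosome 5 segments at the 4-cell stage, where it called 50.4% of all segments, and 7 of 8 at the 8-cell stage, where it called 67.9%. Since such calls are common over the genome, the size and rank of a segment say more than its call.

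From 40 to 60 Mb lay the latest segment, at -30.2 points (SE 2.75, limma adjusted p = 2.9e-06) at the 4-cell stage, rank 137 of the 137 segments from the earliest. At the 8-cell stage it was at -27.8 (SE 1.57, limma adjusted p = 2.56e-09), rank 133. The first 20 Mb lay at -20.5 (SE 3.69) in the 4-cell embryos and at -10.7 (SE 3.90) in the 8-cell embryos. That 8-cell value missed the threshold when any of 5 of the 10 embryos was left out, with an adjusted p of up to 0.0662 (limma). The segment from 20 to 40 Mb lay at 18.2 (SE 3.32) and 18.7 (SE 1.44) points. In 4-cell embryo 6, however, it lay at -6.55, against 16.8 in the next lowest embryo, and without the cells carrying a long stretch the 4-cell value was 22.4 points (limma adjusted p = 2.69e-05). From 60 to 80 Mb the values were -8.36 (SE 2.00) in the 4-cell embryos and -2.39 (SE 1.54) in the 8-cell embryos, where the segment was not called (limma adjusted p = 0.17). Without the cells carrying a long stretch, the 4-cell value was -5.89 and was not called either (limma adjusted p = 0.0956). From 80 to 100 Mb the values were -13.0 (SE 2.61) and -7.23 (SE 1.94).

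Beyond 100 Mb each segment was among the earliest of the genome. From 100 to 120 Mb the values were 29.1 (SE 2.81) in the 4-cell embryos and 25.98 (SE 1.61) in the 8-cell embryos, rank 6 at both. From 120 to 140 Mb they were 32.6 (SE 3.03), rank 4, and 22.2 (SE 2.01), rank 10. The last segment, which ends at 152.48 Mb, lay at 38.4 (SE 2.50), rank 1 of 137, and at 31.8 (SE 1.69), rank 3. In the later batch alone, with 4 embryos at most, 4 of the 8 segments were called at the 4-cell stage: the 40 to 60 Mb segment and the 3 distal ones, each with an adjusted p of at most 0.0412 (limma).

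No segment of chromosome 5 passed a limma test of the difference between the stages, which called 0.73% of the 137 segments. At an unadjusted p under 0.05 there were 3 on chromosome 5 and 19 over all. These were the 120 to 140 Mb segment, 10.4 points lower at the 8-cell stage than at the 4-cell stage (difference -10.4, SE 3.54, limma adjusted p = 0.161), the last segment (-6.63, SE 2.82, adjusted p = 0.219) and the 60 to 80 Mb segment (5.97, SE 2.31, adjusted p = 0.211). For the 120 to 140 Mb segment, 9 of 10 8-cell embryos lay below the 4-cell mean. Leaving out 4-cell embryo 7, the lowest there at 13.3 points against 31.8 in the next, brought 1 chromosome 5 segment past the threshold.

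Domains were then drawn at 80 kb. An early domain is a run of 5 or more bins replicated in at least 80% of cells, and a late domain a run replicated in at most 20%, each as a mean over embryos. The 4-cell map held 26 early domains covering 55.84 Mb and 22 late domains covering 27.92 Mb. The 8-cell map held 39 early domains covering 53.44 Mb and 32 late domains covering 36.56 Mb. Early bins made up 39.9% of the chromosome 5 bins with a value at the 4-cell stage, against 32% over the autosomes, and 37.8% at the 8-cell stage, against 32.8%. Late bins made up 20.7% against 21.2% at the 4-cell stage, and 27.1% against 33.2% at the 8-cell stage. Chromosome 5 thus held more early bins than the autosomes at both stages and, at the 8-cell stage, fewer late ones.

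The distal part carried most of the early domains. Distally 77.1% of bins were early in the 4-cell embryos and 62.2% in the 8-cell embryos, against 19.01% and 25.3% proximally. The proximal part was 32.4% late in the 4-cell embryos and 36.7% in the 8-cell embryos. Late bins were rare distally: 0 of 654 at the 4-cell stage and 65 of 654 (9.94%) at the 8-cell stage, in 5 late domains. The absence of late distal bins in the 4-cell map depended on the set. In mEmb04C embryos alone, whose autosomal share was close to that of the 8-cell embryos, 28 distal bins (4.28%) were late, and in DEP_01 embryos alone 0 were.

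The longest 4-cell early domain ran over 8.4 Mb, from 143520001 to 151920000, and was replicated to 95.8% ± 4.40 (SD, n = 8). The next ran over 7.44 Mb, from 134160001 to 141600000, at 97.6% ± 4.01 (SD, n = 8). Both were also early at the 8-cell stage on average, at 86.3% ± 9.09 and 92.1% ± 4.39 (SD, n = 10), but not throughout, since no 8-cell early domain was longer than 5.36 Mb. That longest 8-cell early domain ran from 120800001 to 126160000 at 97.7% ± 3.70 (SD, n = 10), and the same bins were at 98.7% ± 0.661 (SD, n = 8) at the 4-cell stage. Among proximal early domains the longest ran over 5.92 Mb at the 4-cell stage, from 29600001 to 35520000, at 92.4% ± 16.1 (SD, n = 9) and at 95.8% ± 5.70 (SD, n = 10) in the 8-cell embryos.

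The longest late domain of the 4-cell map ran over 7.92 Mb, from 54800001 to 62720000, and no late domain on any autosome was longer at that stage. It was replicated to 7.80% ± 16.1 (SD, n = 9), where embryo 6, with its cells of opposite state, gave the highest value of 50%. Without the cells carrying a long stretch it was at 2.16% ± 3.07 (SD, n = 7), and the count of late domains was 18. The same bins stood at 20.05% ± 18.5 (SD, n = 10) at the 8-cell stage, where the late domains there were shorter. The next 4-cell late domain ran from 78720001 to 81920000 at 12.1% ± 16.6 (SD, n = 9), across the border of the proximal part. The longest 8-cell late domain ran over 3.84 Mb, from 46640001 to 50480000, at 2.54% ± 2.66 (SD, n = 10), against 15.4% ± 12.99 (SD, n = 9) in the 4-cell embryos. The next, from 40160001 to 43200000, was at 4.52% ± 5.98 (SD, n = 10) and at 12.9% ± 11.8 (SD, n = 9).

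Of the 4-cell early bins 81.0% were also early at the 8-cell stage, and these were 85.5% of the 8-cell early bins. For late bins the shared shares were 65.5% of the 4-cell and 50% of the 8-cell bins. Bins that were early at the 4-cell stage and late at the 8-cell stage numbered 26 over the autosomes, and 7 of these lay on chromosome 5. Of the 7, 5 lay between 126960001 and 127760000 and the remaining pair from 134160001 to 134320000. No chromosome 5 bin went from late to early by these thresholds, against 3 over the autosomes. These counts are descriptions without a test.

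**Figure D3:**
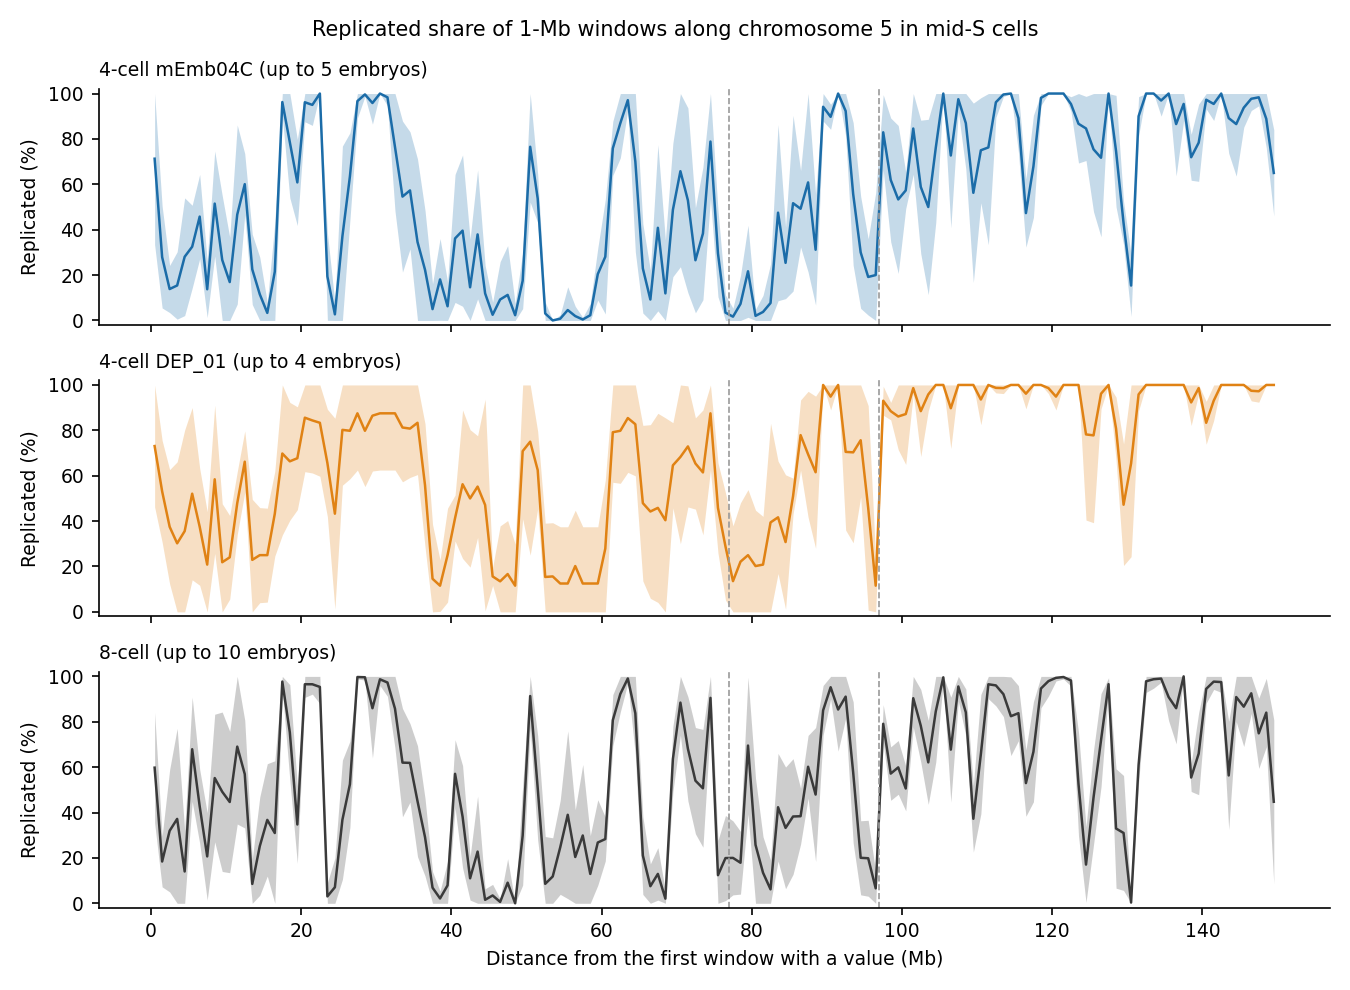
Replicated share of 1-Mb windows along chromosome 5 (y axis, percent) against distance in Mb from the first window with a value, as the mean over embryos (line) with 1 SD on either side (band, limited to 0 and 100), for the 2 sets of 4-cell embryos and the 8-cell embryos. Dashed lines mark 80 and 100 Mb; right of the second line the lines stay mostly high in all 3 sets, with deep dips in the 8-cell embryos.

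In windows of 1 Mb the extremes of the chromosome were shared in part by the stages. The latest 4-cell windows began at 60 Mb (5.79% ± 16.6), 57 Mb (5.98% ± 16.6) and 51 Mb (6.41% ± 12.8, SD, n = 9 each). The window at 51 Mb was also the latest at the 8-cell stage, with 0% in all 10 embryos, followed by those at 133 Mb (0.33% ± 1.04) and 49 Mb (0.604% ± 1.33, SD, n = 10 each). At the 4-cell stage 9 windows stood at 100% in every embryo with a value, among them those at 136, 138 and 145 Mb. At the 8-cell stage this held for the window at 140 Mb, and those at 30 and 124 Mb followed at 99.7% ± 0.878 each (SD, n = 10).

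The stages were compared window by window with limma on embryo means, with the autosomal share of the embryo as a covariate and adjustment over all 2537 windows tested. On chromosome 5 it called 3 of 148 windows, all later at the 8-cell stage, where it called 0.709% of all windows, and 0.512% as later at the 8-cell stage. All 3 lay in the distal part. At an unadjusted p under 0.05 there were 32 chromosome 5 windows and 398 over all (15.7%). The count of chromosome 5 calls was 8 without 8-cell embryo 2, and 0 with only cells of 40 to 60%, where no window of the genome was called and these 3 windows had too few cells (under 8 at a stage) to be tested.

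The first ran from 127000001 to 128000000. In the mEmb04C embryos it was replicated to 76.9% in embryo 9, 100% in embryo 10, 73.1% in embryo 11, 73.1% in embryo 13 and 100% in embryo 14. In the 4-cell DEP_01 embryos it was at 100% in embryos 1 and 3 and at 34.6% in embryo 7. In the 10 8-cell embryos it ranged from 7.69 to 61.5% around a mean of 17.1% ± 16.7 (SD), and only embryo 4 lay above 26.4%. So 9 of the 10 8-cell embryos lay below every 4-cell embryo. The fitted difference, 8-cell minus 4-cell, was -67.5 points (SE 9.35, limma adjusted p = 0.00204). It stayed between -72.7 and -64.9 when any embryo was left out, with an adjusted p of at most 0.0215 (limma). Without all cells that had a long single-state stretch on any autosome, it was -63.7 and missed the threshold (limma adjusted p = 0.0527). Cell by cell, 20 of 28 8-cell cells had copied at most 20% of the window and 0 had copied 80% or more, while 6 of 10 mEmb04C cells and 4 of 6 DEP_01 cells had copied 80% or more.

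The second window ran from 134000001 to 135000000. Its 8 4-cell embryos ranged from 79.2 to 100% around a mean of 92.2% ± 8.16 (SD), and its 10 8-cell embryos from 45.8 to 75.0% around 60.99% ± 7.99 (SD), with no overlap. Fitted together, the 8-cell embryos were at -31.6 points relative to the 4-cell embryos (SE 4.96, limma adjusted p = 0.00549). The adjusted p stayed at or under 0.0263 when any embryo was left out. With the autosomal share subtracted in place of the covariate it was -26.6 and missed the threshold (limma adjusted p = 0.076). The third window ran from 141000001 to 142000000, at 79.6% ± 14.1 (SD, n = 8) against 55.4% ± 6.16 (SD, n = 10), with a fitted difference of -19.7 points (SE 4.32, limma adjusted p = 0.0453). This call was marginal: it was lost in 16 of the 19 fits that left out an embryo, with an adjusted p of up to 0.109 (limma), and 6 of 10 8-cell embryos lay below every 4-cell embryo.

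Each 4-cell set was also compared with the 8-cell embryos, which both comparisons share. Against mEmb04C, limma called 3 chromosome 5 windows (0.63% of all windows called, 0.433% as later at the 8-cell stage), at 127 Mb (-67.3 points, SE 8.63, adjusted p = 0.00194), 134 Mb (-28.7, SE 4.79, adjusted p = 0.0136) and 141 Mb (-17.3, SE 3.66, adjusted p = 0.0471). The call at 141 Mb was lost in 13 of the 15 fits that left out an embryo, with an adjusted p of up to 0.121 (limma). Without 8-cell embryo 2 the count was 9. The same windows against the 4-cell DEP_01 embryos gave -69.3 (SE 18.2, limma adjusted p = 0.0905), -37.7 (SE 8.66, adjusted p = 0.0699) and -28.1 (SE 7.43, adjusted p = 0.0905), with n = 3 4-cell embryos. The size of the difference at 127 Mb was therefore nearly the same against either set, but only the comparison with mEmb04C passed the threshold. All mEmb04C embryos are of the earlier batch and all 8-cell embryos of the later batch, so stage and batch cannot be told apart in that comparison. Against DEP_01, which shares the batch of the 8-cell embryos, none of these 3 windows passed.

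Against DEP_01, limma called 2 chromosome 5 windows (0.708% of all windows called, 0.669% as later at the 8-cell stage), and in both windows DEP_01 averaged higher than mEmb04C. The window from 26000001 to 27000000 was at 100% in embryo 1, 50% in embryo 3, 50% in embryo 6 and 62.5% in embryo 7 of DEP_01. In mEmb04C it ranged from 0 to 50% around 19.4% ± 19.3 (SD, n = 5), and in the 8-cell embryos from 0 to 18.8% around 3.04% ± 6.03 (SD, n = 10). The difference from DEP_01 was -57.7 points (SE 10.2, limma adjusted p = 0.0215), and it missed the threshold without 8-cell embryo 9 or 11. The 50% of embryo 6 is the mean of its cells of opposite state. Without the cells carrying a long stretch the difference was -78.5 (limma adjusted p = 0.00174). That fit held only embryos 1 and 7 of DEP_01, embryo 1 with a single cell. The window from 133000001 to 134000000 was at 100% in embryo 1, 42.3% in embryo 3, 100% in embryo 6 and 19.2% in embryo 7 of DEP_01, where the value of embryo 6 comes from a single cell. In mEmb04C it was at 0% in embryo 9, 34.6% in embryo 10, 7.69% in embryo 11, 11.5% in embryo 13 and 23.1% in embryo 14. In the 8-cell embryos it was at 3.30% in embryo 1 and at 0% in the other 9. The difference from DEP_01 was -73.8 points (SE 14.9, limma adjusted p = 0.0395), and it was lost in 11 of the 14 fits that left out an embryo, with an adjusted p of up to 0.107 (limma). Without the cells carrying a long stretch it was -68.3 (limma adjusted p = 0.0351), again with only embryos 1 and 7 of DEP_01. The number of chromosome 5 calls against DEP_01 was 1 without 4-cell embryo 1 or without 8-cell embryo 1, 3, 4, 6, 7 or 12, 0 without 8-cell embryo 9 or 11, and 6 without 4-cell embryo 6.

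Between the 4-cell sets themselves limma called 0 of 148 chromosome 5 windows and 0% of all windows, with 15 chromosome 5 windows and 277 of all windows (10.9%) at an unadjusted p under 0.05. The set means differed by 40 points or more in 10 of 150 windows with a value, DEP_01 being higher in each, by up to 53.3 points at 52 Mb (17.5% against 70.8%), a window singled out after its values were seen. With the autosomal share as a covariate, the fitted difference was 24.3 points at 52 Mb. It fell below 0 at 28 Mb (-7.25), 97 Mb (-10.1), 106 Mb (-27.2) and 112 Mb (-25.6), and was above 0 in the other windows of the 10. At 26 Mb the set means differed by 46.3 points, with a fitted difference of 62.6 (SE 22.01, limma adjusted p = 0.404). At 133 Mb they differed by 50 points, with a fitted difference of 76.6 (SE 28.2, limma adjusted p = 0.411). DEP_01 embryos were further in S phase, and batch and set coincide, so set, batch and position in S phase cannot be told apart here.

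**Figure D4:**
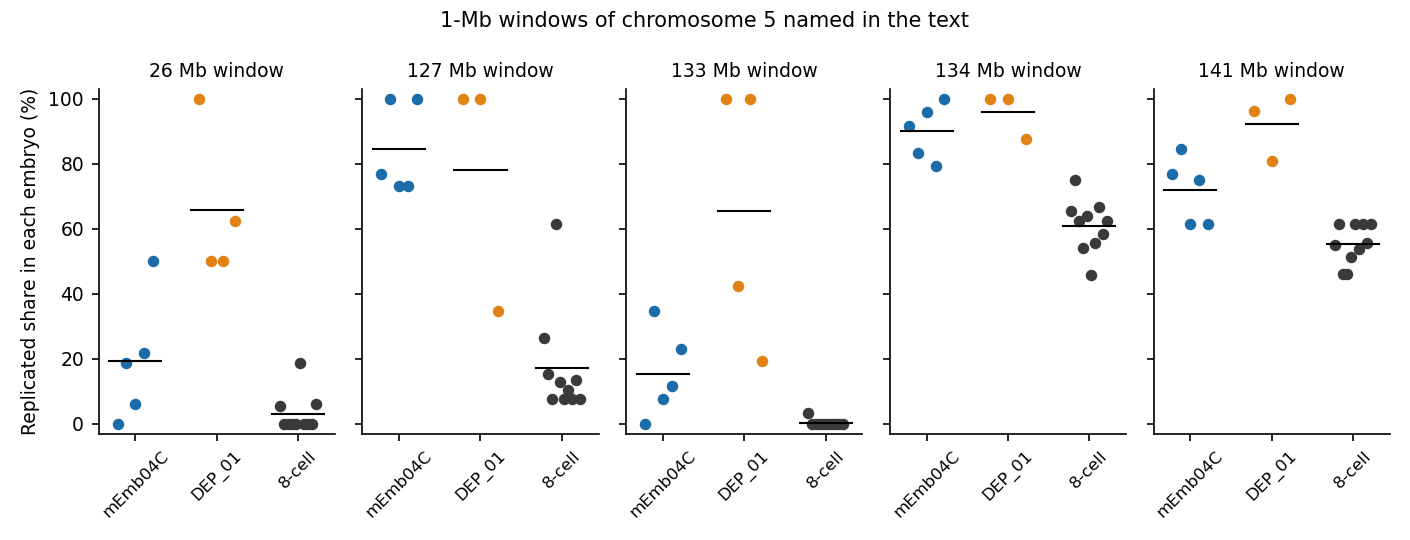
Replicated share (y axis, percent) of 5 windows of 1 Mb on chromosome 5 in each embryo (points) of 4-cell mEmb04C, 4-cell DEP_01 and the 8-cell stage, with horizontal lines at the means. At 127 Mb 9 of 10 8-cell embryos lie at or below 26.4%, at 133 Mb all lie at or below 3.30%, and at 134 Mb the 8-cell embryos lie below all 4-cell embryos.

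At 80 kb, the 250 bins from 120 to 140 Mb resolved the delayed windows into short late blocks between early flanks. Many 8-cell bins between the flanks and beside these blocks were neither early nor late. Early bins numbered 178 in mEmb04C, 207 in DEP_01 and 148 at the 8-cell stage, and late bins 11, 0 and 36. The flanks were early in every set. From 120800001 to 126160000 the mean share was 98.7% in mEmb04C, 98.8% in DEP_01 and 97.7% at the 8-cell stage, and from 134480001 to 138800000 it was 99.3%, 100% and 97.7%.

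Between these flanks the 8-cell embryos held 2 late blocks. The first, of 0.64 Mb from 127120001 to 127760000, was replicated to 6.58% at the 8-cell stage, 84.4% in mEmb04C and 77.1% in DEP_01. So it was late at the 8-cell stage and, on average, mostly copied in both 4-cell sets. Embryo 7 of DEP_01 stood at 34.6% in the 127 Mb window, and the 4-cell embryos ranged from 31.25 to 100% (n = 8) in the block. The lowest single difference between mEmb04C and 8-cell bins, -88.6 points, lay in it from 127600001 to 127680000 (95% against 6.43%). The second block, of 1.68 Mb from 132640001 to 134320000, was at 2.96% at the 8-cell stage, 31.2% in mEmb04C and 63.5% in DEP_01. Here mEmb04C had a late block of its own inside it, of 0.8 Mb from 133040001 to 133840000, at 8.50% against 62.5% in DEP_01 and 0.143% at the 8-cell stage. The 8-cell block therefore contained the mEmb04C block and extended beyond it on both sides, and the 134 Mb window holds its far edge. In DEP_01 the lowest bin of the whole stretch stood at 33.3%. The DEP_01 embryos were unlike each other here. In the 133 Mb window they ranged from 19.2 to 100% (n = 4), against 0 to 34.6% in mEmb04C (n = 5). The value of DEP_01 embryo 6 there came from a single cell.

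Over all 250 bins the median difference between 8-cell and mEmb04C bins was -4.05 points, and between 8-cell and DEP_01 bins -5 points. Bins at least 40 points lower at the 8-cell stage numbered 36 against mEmb04C and 57 against DEP_01, and bins at least 40 points higher numbered 2 and 0. Between the 4-cell sets 19 bins were at least 40 points higher in DEP_01 and 0 lower. In the 8-cell cells titled DEP_01_162 and DEP_01_164 the window at 127 Mb averaged 28.2% over 12 cells and 10.6% over 16 cells, and that at 133 Mb 1.92% and 0%, so each of these sets of cells averaged below the 4-cell sets in both windows.

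The gene order around these blocks is known. In RefSeq's order, Tmem132b is followed by Gm4868 and Tmem132c, and further on by Tmem132d, all but Gm4868 members of a family of membrane proteins known mainly from the nervous system. After them come a group of housekeeping genes such as Ran, Cct6a, Gusb and Sbds. Caln1, Galnt17 and Auts2 follow, the last a chromatin regulator of neural development. Castor2 comes next, and then Gtf2i and Eln, which belong to the region that is deleted in human Williams syndrome. By general knowledge of the mm9 map, which was not read from the files, the late block near 127 Mb lies in the gene-poor interval between Tmem132b and Tmem132c, and the block near 133 Mb covers an end of Auts2 and the gene-poor interval towards Castor2. These genes were singled out after the values were seen, and the profiles carry no expression values.

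**Figure D5:**
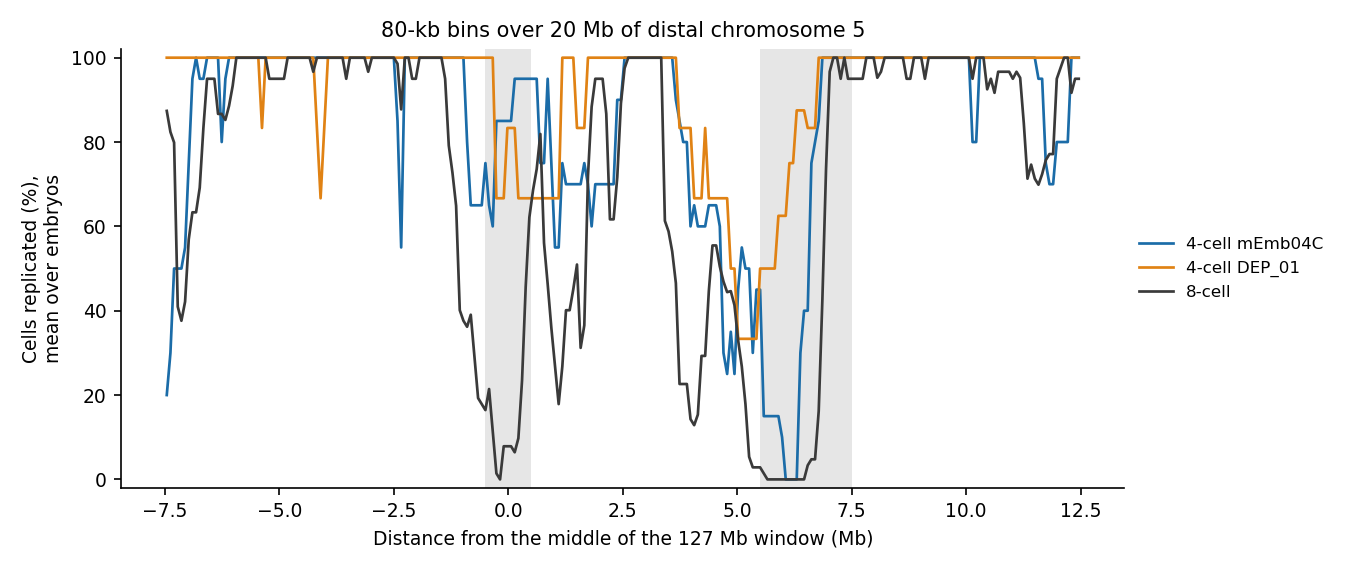
Share of cells replicated in each 80-kb bin (y axis, percent, mean over embryos) from 120 to 140 Mb against distance in Mb from the middle of the 127 Mb window, for 4-cell mEmb04C, 4-cell DEP_01 and 8-cell cells, with the windows at 127, 133 and 134 Mb shaded. The 8-cell line falls to 6.58% on average in the block at 127 Mb, where both 4-cell lines stay mostly above 60%, and to 2.96% in the block near 133 Mb.

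Changes of state along a cell's chromosome were more frequent on average in the 8-cell embryos, a difference that was not tested. Per 100 called bins, the state changed 4.54 ± 1.91 times (SD, n = 9) in the proximal part of 4-cell embryos and 6.62 ± 1.39 times (SD, n = 10) in 8-cell embryos. Distally it changed 3.76 ± 1.87 times (SD, n = 8) and 6.47 ± 1.96 times (SD, n = 10). The ranges overlapped in both parts, and 4-cell embryo 6, with its cells of opposite state, had the lowest proximal value of 0.319. In the mEmb04C embryos, nearest to the 8-cell embryos in autosomal share, the values were 5.47 ± 1.17 proximally and 4.79 ± 1.52 distally (SD, n = 5), and in DEP_01 3.39 ± 2.17 (SD, n = 4) and 2.04 ± 0.694 (SD, n = 3). A region copied in nearly all cells has few changes left to show, and the position within S phase was not held equal in these counts.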

How the data were processed

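Single-cell DNA was amplified and sequenced, and the deposited profiles give each 80-kb bin of each cell the authors' state, which has no unit: a replicated bin is 1, an unreplicated bin -1 and an uncalled bin 0. The authors' annotation gives the replicated percent, a noise score, the embryo and the batch, per the file headers. Bins follow mm9, per the submitters' processing notes. Aligner and caller: not given in the sources used here. Read depth is not part of these files, so called bins stand in for coverage.

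Shares of called bins were averaged per embryo. Windows (bins assigned by midpoint, at least 6 called) and 20-Mb segments (at least 50 called) were fitted over the whole genome with limma 3.58.1 in R 4.3.3 and adjusted by Benjamini-Hochberg. Chromosomes were compared with two-sided exact sign-flip tests. Domain runs bridged at most 2 bins without a value and needed 5 embryos per bin. The fits were tested on simulated data. The stage test of segments was added after seeing the data. The regions, windows and gene list were chosen with earlier results of these data known. Named were windows past an adjusted p of 0.05, windows from 120 to 140 Mb where the 4-cell sets differed by 40 points or more, the extreme windows and the longest domains. Embryos are labelled as separate, but nothing says they came from separate experiments within a batch. All 48 landmark genes listed were found on chromosome 5 in the RefSeq table.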

Additional observations from a re-analysis of the deposited data

Results flagged for a closer look

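Groups of embryo values were examined for a single embryo far from the others. Chance gives about 1 in 20 for independent groups, but some groups here share bins, so that rate is only a rough guide. Of 36 groups examined, 7 held such an embryo. 4-cell embryo 7 was the lowest in 3 of them: 22.7 points for the distal part minus the autosomes (next 31.3), 13.3 points for the segment from 120 Mb (next 31.8), and 34.6% in the window at 127 Mb (next 73.1%). 4-cell embryo 6, whose 2 cells held opposite states, was the lowest in the segment from 20 Mb, at -6.55 points (next 16.8). 8-cell embryo 4 was the highest in the window at 127 Mb, at 61.5% (next 26.4%). 8-cell embryo 6 was the highest in the window at 26 Mb, at 18.75% (next 6.25%). 8-cell embryo 1 was the highest in the window at 133 Mb, at 3.30% where the other 9 stood at 0%.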

How the results depend on the processing

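The proximal and distal offsets and their gap moved by less than the SD between embryos, and the counts of early domains by less than 1.5 times, under each alternative run, and the proximal offset stayed below and the distal above 0 when any embryo was left out (gap 42.1 to 43.9 at the 4-cell and 30.3 to 32.6 at the 8-cell stage). The count of chromosome 5 windows that differ between the stages, 3, became 6 with cells of 20 to 80%, 7 with windows of 0.5 Mb, 0 with cells of 40 to 60% (0 over the genome too), 1 in the later batch alone (the windows at 127, 134 and 141 Mb had too few cells to be tested in both of these) and 5 without cells with a long stretch on chromosome 5, and ran from 2 to 8 when an embryo was left out, 8 being without 8-cell embryo 2. The count against mEmb04C ran from 2 to 9 and that against DEP_01 from 0 to 6 when an embryo was left out. The latter became 23 with no term for replicated percent. It became 15 without cells with a long stretch on chromosome 5, where only 4-cell embryos 1 and 7 of DEP_01 remained. The count between the 4-cell sets was 0 in each of those fits. Segments called at the 4-cell stage fell from 8 to 4 in the later batch alone and stayed at 8 when an embryo was left out, those at the 8-cell stage ran from 6 to 7, and those that differ between the stages from 0 to 1. For chromosome 5 as a whole at the 4-cell stage, cells of 20 to 80% gave 3.39 points (adjusted p = 0.0439, exact sign-flip test), the later batch alone -0.30, and leaving out an embryo 2.35 to 4.49. Late 4-cell domains numbered 12 at thresholds of 90 and 10%, against 22. The comparison of the 4-cell sets without cells with a long stretch on any autosome could not be fitted, since no DEP_01 cell was left. Read depth is not part of these files, so the number of called bins and of embryos limits the precision. No paired analysis was possible because the stages hold different embryos, whose numbers start again at each stage and link no embryo of one stage to one of the other. The cause of these shifts was not tested.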
